A study of Mus musculus with 8 samples.

Results

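Transcripts of glycolysis and of glycogen metabolism were examined in newborn mouse liver with and without glycerol kinase. The set was a fixed list of 34 genes, matched by gene symbol, with each gene read from the probe set that had the highest mean signal over the 8 arrays. Of these, 31 had such a probe set, out of 18194 genes named in all. Gpi1, Pfkfb1 and Eno1 were not analysed here. The livers came from male C57BL/6J pups on day of life 3: 4 with a targeted disruption of glycerol kinase (knockout) and 4 wild-type littermates of matched age, with 1 Affymetrix Mouse 430 2.0 array for each liver. The labels name no allele. They describe the knockout pups at this age as hypoglycemic and acidotic, so that the genes of glucose use and storage bear on the state in which the livers were taken. Values are signals on a linear scale, brought on every array to a common target by the authors.

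Glycolysis splits glucose into pyruvate through a chain of enzymes, several of which exist as a liver form and as forms made by muscle, blood or other tissues. Glucose enters hepatocytes through Slc2a2 and is phosphorylated by a hexokinase, phosphofructokinase commits it to the pathway, and the enzymes from aldolase to enolase also run in reverse when the liver makes glucose. Liver stores glucose as glycogen, which is built by way of phosphoglucomutase (Pgm1), Ugp2, Gys2 and Gbe1 and is taken down by Pygl under the control of phosphorylase kinase. The stores laid down before birth are drawn on once the placental supply of glucose ends. Glycerol kinase makes glycerol 3-phosphate, which enters the same chain at the triose phosphates.

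The array labelled wild type 4 stood apart by sex-linked transcripts, against its label: Xist read 10506 there and 196 to 396 on the remaining 7, while Eif2s3y, from the Y chromosome, read 1.30 there and 685 to 1164 elsewhere. Replicates 1 and 2 of both groups parted from replicates 3 and 4 in the 3' to 5' ratio of the transferrin receptor, at 6.50 to 6.72 against 4.21 to 4.83. Knockout 1 and knockout 2 had the highest 3' to 5' ratios of the pyruvate carboxylase control, 7.03 and 4.93 against 2.06 to 3.46. Knockout 1 also had the highest ratio of actin, 1.74 against 1.21 to 1.32 on the remaining arrays. The ratio of Gapdh ran from 0.77 to 0.90 over all arrays. The labels give no batch, and the part of these differences in the results was not tested beyond the values given for replicates 1 and 2 alone, for replicates 3 and 4 alone, and without single arrays.

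Of the 31 genes, 29 had a signal of at least 200 on 4 or more arrays and were tested by limma on log2(signal + 16) together with all 20395 probe sets that met this minimum. Pgam1 was the 1 gene past the threshold (Benjamini-Hochberg adjusted p under 0.05 over all probe sets tested), and it was higher in the knockout. Over all probe sets tested, 0.147% were called higher and 0.152% lower, 0.299% in all. The other 28 genes had adjusted p between 0.102 and 0.980. Their fold changes are given as values, on the log2 scale as knockout minus wild type.

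At an unadjusted p under 0.05, 7 of the 29 were higher and 4 lower, 37.9% of those tested. Over all probe sets tested 7.12% were higher and 7.32% lower at this level, 14.4% in all. The members stand on the brightest probe set of each gene, and 26 of the 29 reached 200 on all 8 arrays. The background holds every probe set tested, dim ones and several of the same gene among them. The members were chosen with results of these data known. The filter bears on this count: Phkb reached the minimum on the 4 wild-type arrays and on 0 knockout arrays, Pfkfb2 on 4 and 1, and Pfkfb3 on 2 and 4. With a minimum on the mean over the 8 arrays instead, 10 of 28 stood at this level, against 14.7% of all. Phkb then fell out, while Pfkfb2 and Pfkfb3 stayed. The knockout mean of Pfkfb2 (178) and the wild-type mean of Pfkfb3 (171) lay under 200, so each passed through its higher group. Pfkfb2 was among the 10 (limma unadjusted p = 0.0258), so this count is not free of the filter either. A minimum of 400 on 4 or more arrays left out Phkb, Pfkfb2, Pfkfb3 and Pfkp. There 8 of 25 stood at this level (32%), against 16.8% of all. With wild type 4 and knockout 1 both left out there were 5 higher and 1 lower among 29 (20.7%), against 5.68% higher and 5.19% lower of all, 10.9% together. For replicates 1 and 2 alone the count was 10 of 29 against 15.8%, and for replicates 3 and 4 alone 10 of 29 against 14.4%. The median fold change of the 29 was 0.11, beside -0.03 over all probe sets tested, and 17 of the 29 lay above 0, beside 45.8% of all.

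The enzymes from aldolase to phosphoglycerate mutase held the 1 gene called. Pgam1, which turns 3-phosphoglycerate into 2-phosphoglycerate, had signals of 3469, 2923, 3483 and 4589 on wild type 1 to 4 and of 8809, 6015, 8776 and 7109 on knockout 1 to 4. The lowest knockout array lay above the highest wild-type array. The mean went from 3616 ± 699 to 7677 ± 1363 (SD, n = 4 each), 2.12 times as high, with a log2 fold change of 1.08 ± 0.17 (SE; limma adjusted p = 0.0441). The size was alike in both pairs of replicates, 1.19 for replicates 1 and 2 and 0.98 for replicates 3 and 4. It ran from 0.99 to 1.20 when each array was left out in turn, but the adjusted p passed 0.05 without any 1 of 7 of the arrays, at 0.0519 (without wild type 4) to 0.169 (without wild type 2). Without knockout 4 it was 0.0322. Pgam1 was also the 1 gene of the 29 called with the 2 pairs of replicates as a block (0.902% of all called) and with the replicate number as a block (0.275%). It rests on 1 probe set.

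Tpi1, which interconverts the triose phosphates, was next by p. Its signals were 8649, 7486, 8481 and 7592 in wild type 1 to 4 and 13947, 10594, 11406 and 10207 in knockout 1 to 4. The groups did not overlap, with knockout 1 the highest array. Its log2 fold change was 0.51 ± 0.12, with limma adjusted p = 0.102. The other probe sets of Tpi1 stood at 0.65 and 0.67, and the groups of all 3 were apart.

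Aldoa, the aldolase of muscle and many other tissues, had 2949, 2778, 3159 and 3500 in the wild-type livers and 7267, 3896, 5011 and 4036 in the knockout, in the order of the replicates. Again no knockout array fell among the wild-type arrays, and knockout 1 stood far above the rest. The log2 fold change was 0.66 ± 0.19 (limma adjusted p = 0.163), 0.89 in replicates 1 and 2 and 0.43 in replicates 3 and 4. The 5 probe sets tested for Aldoa ran from 0.54 to 0.74, and the groups of 4 of them did not overlap. All 5 are of the kind that the array's naming marks as open to binding related sequences, so copies of the gene elsewhere in the genome may add to them. The brightest probe sets of Tpi1, Pgk1 and Gaa are of this kind too.

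The neighbouring steps stood nearer to 0. Pgk1, the kinase that makes the first ATP of the chain, had 20047, 16385, 18350 and 19359 in the wild-type livers and 25127, 18484, 19456 and 17671 in the knockout, a fold change of 0.11 ± 0.12. Its other probe sets stood at 0.15 and 0.52. Gapdh was read from the array's control probe sets, which were kept out of the fit. The brightest of them had 17367, 18750, 20642 and 23829 in the wild-type livers and 24104, 19623, 25116 and 22112 in the knockout. The groups overlapped on all 3 Gapdh probe sets, with differences of 0.17 to 0.21 on the log2 scale and exact two-sided permutation p of 0.143 to 0.20, where 4 against 4 arrays can give 0.0286 at the smallest. Over this run of enzymes, 3 of the 4 tested stood apart between the groups (Pgam1, Tpi1 and Aldoa), while Gapdh, outside the fit, did not. Of all probe sets tested, 4.47% had every knockout array above the wild-type arrays. The genes were chosen with results of these data known, so the count is not read against that share.

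**Figure D1:**
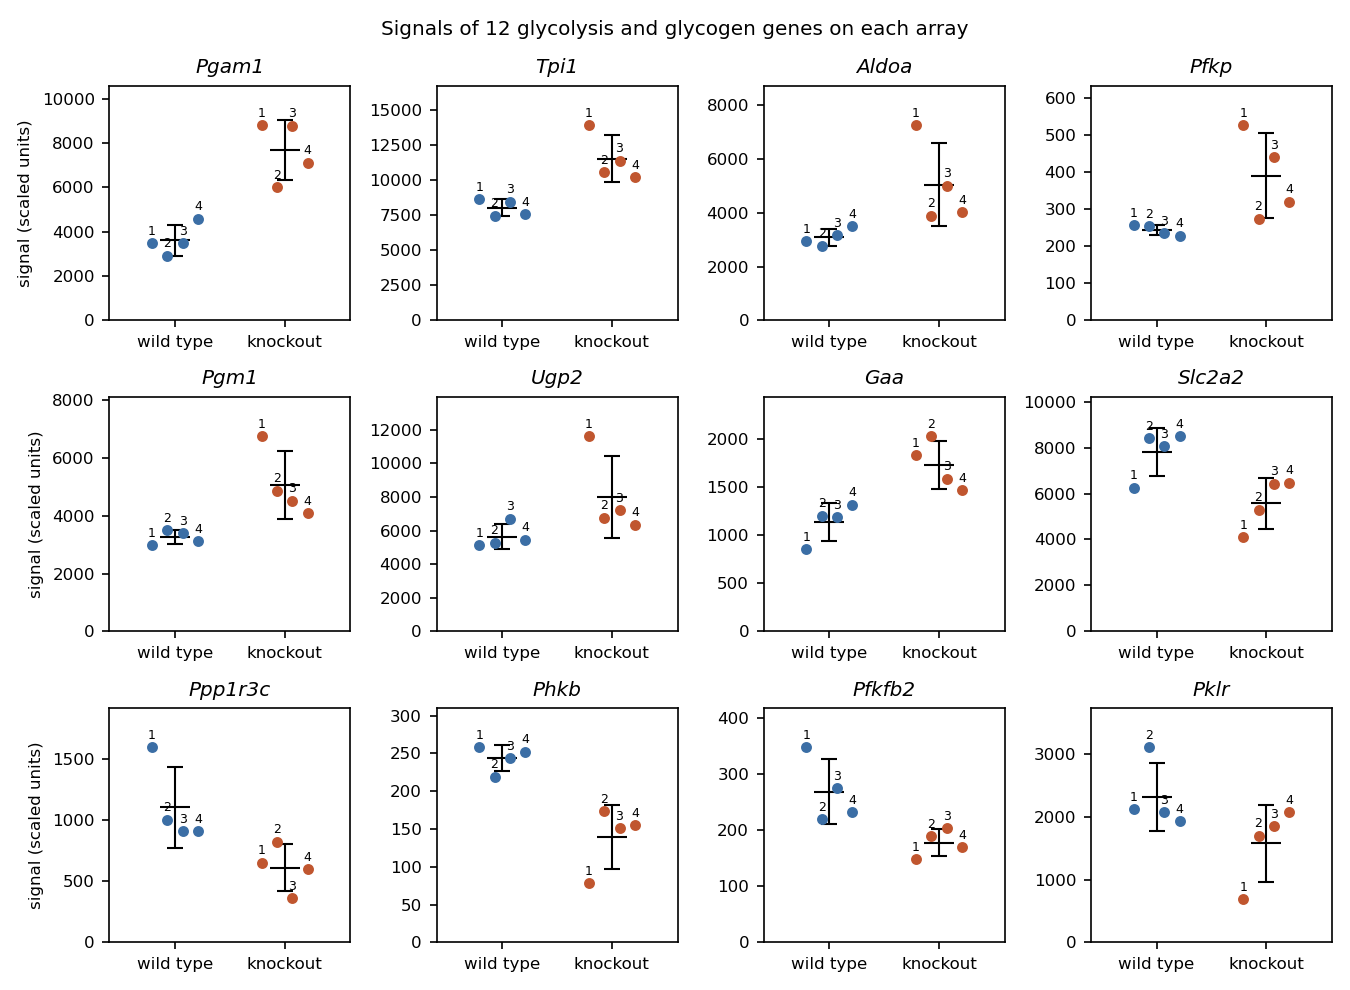
Signal (linear, scaled units) of 12 genes on each array, wild type in blue and knockout in orange, with the replicate number beside each point and the mean ± SD (n = 4) in black. The knockout arrays of Pgam1 sit between 6015 and 8809, all above the wild-type arrays, and knockout 1 is the highest knockout array for Pgam1, Tpi1, Aldoa, Pfkp, Pgm1 and Ugp2.

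The promoters of these enzymes are shown because the knockout arrays of Pgam1, Tpi1 and Aldoa all lay above the wild-type arrays while those of Ldha, of the same pathway, did not. Many glycolysis genes are known to be bound by hypoxia-inducible factors at the words ACGTG and GCGTG, and the first of these is also part of the E-box CACGTG, the word of factors such as MLXIPL and MYC. The 250 bases before the start of each gene were taken from RefSeq (GRCm38.p6), and both words were searched on both strands, so that a CACGTG counts once on each strand. For genes with several starts the one with the most matches is shown. Capitals mark the matches.
Pgam1, chr19:41911621-41911870, plus strand: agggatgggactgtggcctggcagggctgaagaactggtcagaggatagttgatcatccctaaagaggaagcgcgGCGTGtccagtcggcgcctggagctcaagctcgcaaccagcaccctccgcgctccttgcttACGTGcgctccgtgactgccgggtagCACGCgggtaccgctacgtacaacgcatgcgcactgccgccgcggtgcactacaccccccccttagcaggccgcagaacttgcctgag
Tpi1, chr6:124814159-124814408, minus strand: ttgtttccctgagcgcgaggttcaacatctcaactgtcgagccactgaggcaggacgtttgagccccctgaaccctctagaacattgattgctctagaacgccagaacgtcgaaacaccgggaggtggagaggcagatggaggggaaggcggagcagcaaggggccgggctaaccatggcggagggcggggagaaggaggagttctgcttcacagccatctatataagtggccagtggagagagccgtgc
Aldoa, chr7:126799255-126799504, minus strand: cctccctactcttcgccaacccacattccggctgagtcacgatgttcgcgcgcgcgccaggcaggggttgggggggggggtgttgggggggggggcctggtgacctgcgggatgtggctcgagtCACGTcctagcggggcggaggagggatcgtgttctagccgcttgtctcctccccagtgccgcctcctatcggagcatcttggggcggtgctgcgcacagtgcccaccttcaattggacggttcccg
Ldha, chr7:46845554-46845803, plus strand: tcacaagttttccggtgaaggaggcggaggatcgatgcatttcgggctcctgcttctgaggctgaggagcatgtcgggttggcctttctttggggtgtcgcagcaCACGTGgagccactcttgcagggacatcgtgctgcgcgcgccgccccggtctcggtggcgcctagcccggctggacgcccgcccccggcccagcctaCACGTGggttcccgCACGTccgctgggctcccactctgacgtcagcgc
There were 3 matches for Pgam1, 0 for Tpi1, 1 for Aldoa and 5 for Ldha, 4 of the last from a pair of CACGTG words. Whether either family of factors had a part in the fold changes was not tested. Of 42 promoters listed for 29 of the 31 genes, 30 (71.4%) held a match, against 38.6% of all 32851 promoters. The members' promoters were also richer in G and C, with a median of 61% against 52.4%. They held more CG pairs, at a median of 13 against 6, and both words hold a CG. Several starts of the same gene count as separate promoters. A match is a stretch of letters and not a known site.

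Genes at the entry of the pathway gave smaller and mixed values. Slc2a2, the glucose transporter of hepatocytes, had 6257, 8416, 8058 and 8501 in the wild-type livers and 4106, 5291, 6428 and 6474 in the knockout. The highest knockout arrays lay just above wild type 1 and below the other wild-type arrays. Its log2 fold change was -0.50 ± 0.17 (limma unadjusted p = 0.0132, adjusted p = 0.215), and -0.36 without knockout 1. Slc2a1, the transporter of red cells and many other tissues, had 1834, 764, 945 and 1078 against 1647, 1030, 1063 and 1473, with wild type 1 the highest array of all. Its 3 probe sets stood at 0.22 to 0.44, with overlapping groups. Hk1, the hexokinase of blood and brain, ran from 3054 to 4265 in the wild-type livers and from 3536 to 5836 in the knockout (0.27 ± 0.18), at -0.10 in replicates 1 and 2 and 0.65 in replicates 3 and 4. Its other probe set stood at -0.08 ± 0.42, with -0.81 and 0.65 in the pairs of replicates, and Hk1 was the 1 gene of 12 with several tested probe sets whose signs differed. Hk2, the insulin-responsive form of muscle and fat, ran from 436 to 553 and from 508 to 674 (0.22 ± 0.14).

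The 3 phosphofructokinase subunits did not move as a block. Pfkp, the platelet form, had 257, 254, 235 and 229 in the wild-type livers and 528, 275, 440 and 320 in the knockout. Its groups did not overlap, although the signals lie near the minimum and knockout 2 stood close to wild type. The log2 fold change was 0.61 ± 0.21 (limma unadjusted p = 0.0151, adjusted p = 0.227). The dimmer probe sets of Pfkp, not tested, stood at 0.71 and -0.35 with overlapping groups. The liver form Pfkl had 3955, 4006, 5556 and 3571 against 3439, 3489, 4417 and 4903. The muscle form Pfkm had 1398, 1338, 1537 and 1379 against 872, 1211, 1636 and 1503. Both overlapped between the groups, with fold changes of -0.07 ± 0.17 and -0.15 ± 0.19 and knockout 1 the lowest array for each.

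Fructose 2,6-bisphosphate, the main activator of phosphofructokinase, is made and removed by the Pfkfb enzymes. Pfkfb3, the form with the highest kinase activity relative to its phosphatase, had 102, 204, 257 and 121 in the wild-type livers and 255, 215, 250 and 280 in the knockout. Wild type 3 lay among the knockout arrays, and the fold change was 0.59 ± 0.28. Pfkfb2, best known from heart, had 348, 219, 275 and 232 against 149, 189, 203 and 170, with no overlap and a fold change of -0.54 ± 0.21. Of its 4 probe sets this was the 1 tested. The dimmer ones stood at 0.57, -0.09 and -0.12. The first of these had no overlap in the other direction, at 24.1 to 34.3 in wild type and 35.4 to 70.3 in the knockout. Pfkfb2 and Pfkfb3 were dim, and each reached the signal minimum mainly in the group where it was higher, so their differences were in part fixed by that filter.

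At the end of the chain the pyruvate kinases and lactate dehydrogenase overlapped between the groups. Pklr, which gives the liver form and, from another first exon, the red cell form, had 2128, 3117, 2075 and 1932 in the wild-type livers and 691, 1703, 1855 and 2078 in the knockout. Knockout 1 lay far below the others, and knockout 2 and knockout 3 also lay below the lowest wild-type array. The other probe sets of Pklr stood at -0.59 and -1.33. On both of them knockout 1 and knockout 2 lay below every wild-type array. On the probe set shown, the fold change was -0.63 ± 0.31 with all arrays and -0.28 without knockout 1. It was -1.23 in replicates 1 and 2 and -0.03 in replicates 3 and 4. Pkm, the pyruvate kinase of muscle and of growing tissues, had 1545, 1719, 1511 and 1970 against 2378, 1485, 1492 and 1437 (-0.02 ± 0.18). Ldha, which reduces pyruvate to lactate, ran from 18176 to 23657 in the wild-type livers and from 18700 to 25115 in the knockout (0.04 ± 0.12).

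Whether a liver form and its counterpart changed unequally was asked of 5 pairs, as the log2 ratio of the 2 signals on each array. Ratios are given relative to the wild-type mean, and the test was an exact two-sided permutation of the arrays, adjusted over the 5 pairs. No pair passed. Pfkl over Pfkp was at -0.16, -0.13, 0.44 and -0.15 in the wild-type livers and at -1.36, -0.44, -0.75 and -0.16 in the knockout. Knockout 4 thus lay at the edge of the wild-type range. The difference was -0.67 ± 0.30 (SE; exact permutation p = 0.0571, adjusted p = 0.286).

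Slc2a2 over Slc2a1 was at -1.05, 0.63, 0.26 and 0.15 against -1.50, -0.46, -0.23 and -0.68. Wild type 1 lay among the knockout arrays, and the difference was -0.72 ± 0.46 (exact permutation p = 0.171, adjusted p = 0.429). Pklr over Pkm was at 0.02, 0.42, 0.02 and -0.46 against -2.19, -0.24, -0.12 and 0.09. That difference, -0.62 ± 0.56 (exact permutation p = 0.40), came down to -0.09 without knockout 1. Pfkl over Pfkm differed by 0.08 ± 0.16 and Pygl over Pygb, the brain form of the phosphorylase, by 0.00 ± 0.17. These results do not show that the forms changed alike, since 8 arrays leave wide errors. The pair of Pfkfb1 with Pfkfb3 was not analysed here, and Gys1 was below the signal minimum, so that its pair with Gys2 was not tested.

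**Figure D2:**
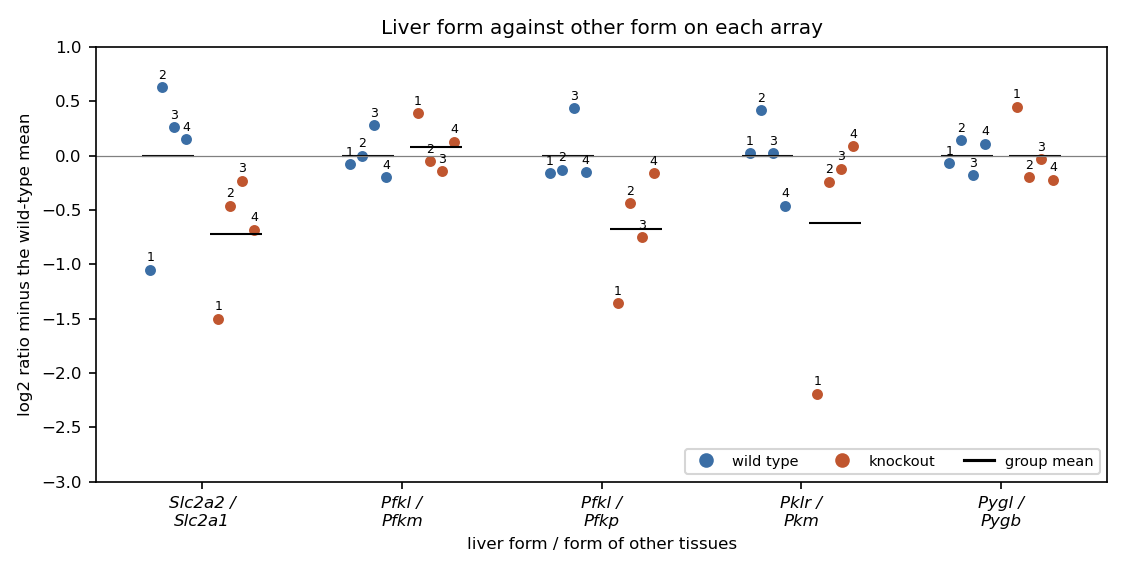
Log2 ratio of the liver form over the form of other tissues on each array, minus the mean of the wild-type arrays, for the 5 pairs tested; points carry the replicate number and black lines are group means. Knockout 1 lies lowest for the pairs of Slc2a2, of Pfkl with Pfkp and of Pklr, at -1.50, -1.36 and -2.19.

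Pgm1 and Ugp2, which act before glycogen synthase, had fold changes above 0 that did not pass the test, and the synthase had overlapping groups. Pgm1, the main phosphoglucomutase of liver (older symbol Pgm2), had 2980, 3505, 3392 and 3116 in the wild-type livers and 6752, 4870, 4525 and 4091 in the knockout. The groups did not overlap, and the log2 fold change was 0.61 ± 0.16 (limma unadjusted p = 0.00291, adjusted p = 0.124). The other probe set of Pgm1, with signals of 156 to 302, stood at 0.10. Its paralog Pgm2, older symbol Pgm1, was at -0.14 ± 0.16. Ugp2, which makes UDP-glucose, had 5117, 5286, 6703 and 5460 against 11617, 6762, 7192 and 6344, so that wild type 3 lay above knockout 4. Its fold change was 0.46 ± 0.19 and its 5 probe sets ran from 0.08 to 0.56; without knockout 1 it was 0.27.

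Gys2, the glycogen synthase of liver, had 2346, 4080, 3405 and 3584 in the wild-type livers and 5733, 4140, 3051 and 2839 in the knockout. Knockout 1 was the highest array, and wild type 1 the lowest. The fold change of 0.20 ± 0.24 was made of 0.65 in replicates 1 and 2 and -0.25 in replicates 3 and 4. Gbe1, the branching enzyme, ran from 533 to 740 and from 532 to 742 (0.02 ± 0.16).

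On the side of breakdown, Pygl, the phosphorylase of liver, had 7035, 8475, 8081 and 7219 in the wild-type livers and 8162, 6837, 7513 and 6716 in the knockout (-0.08 ± 0.11). Its partner in the ratio above, Pygb, had 1270, 1319, 1569 and 1142 against 1022, 1350, 1317 and 1345. Of the phosphorylase kinase subunits, Phkb had 258, 219, 244 and 252 in the wild-type livers and 78.3, 174, 151 and 155 in the knockout. No array overlapped, but every knockout signal lay below the minimum of 200, so the gene was tested because of its wild-type arrays. The fold change was -0.78 ± 0.26 (limma adjusted p = 0.209). The liver subunits Phka2 and Phkg2 were at -0.16 ± 0.17 and 0.21 ± 0.16.

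Protein phosphatase 1 is brought to glycogen by targeting subunits, and 1 of them, Ppp1r3c, had the lowest fold change of the 29. Ppp1r3c had 1596, 1002, 908 and 909 in the wild-type livers and 653, 824, 359 and 601 in the knockout. Every knockout array lay below the lowest wild-type array, and the log2 fold change was -0.86 ± 0.26 (limma unadjusted p = 0.00746, adjusted p = 0.179), -0.77 in replicates 1 and 2 and -0.94 in replicates 3 and 4. The other probe set of Ppp1r3c stood at -0.08. Ppp1r3b, the subunit typical of liver, ran from 987 to 2256 and from 1462 to 2295 (0.28 ± 0.25). Ppp1r3d reached 200 on 0 arrays and was not tested, with signals of 56.1 to 194.

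Glycogen is also taken down in lysosomes. Gaa, the acid glucosidase that does so, had 859, 1207, 1191 and 1320 in the wild-type livers and 1835, 2035, 1592 and 1471 in the knockout. The groups were apart, with a log2 fold change of 0.60 ± 0.17 (limma unadjusted p = 0.00501, adjusted p = 0.150), 0.91 in replicates 1 and 2 and 0.28 in replicates 3 and 4. Its other probe set stood at 0.34 with overlapping groups. Stbd1, which tethers glycogen to membranes, was at -0.33 ± 0.18.

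**Figure D3:**
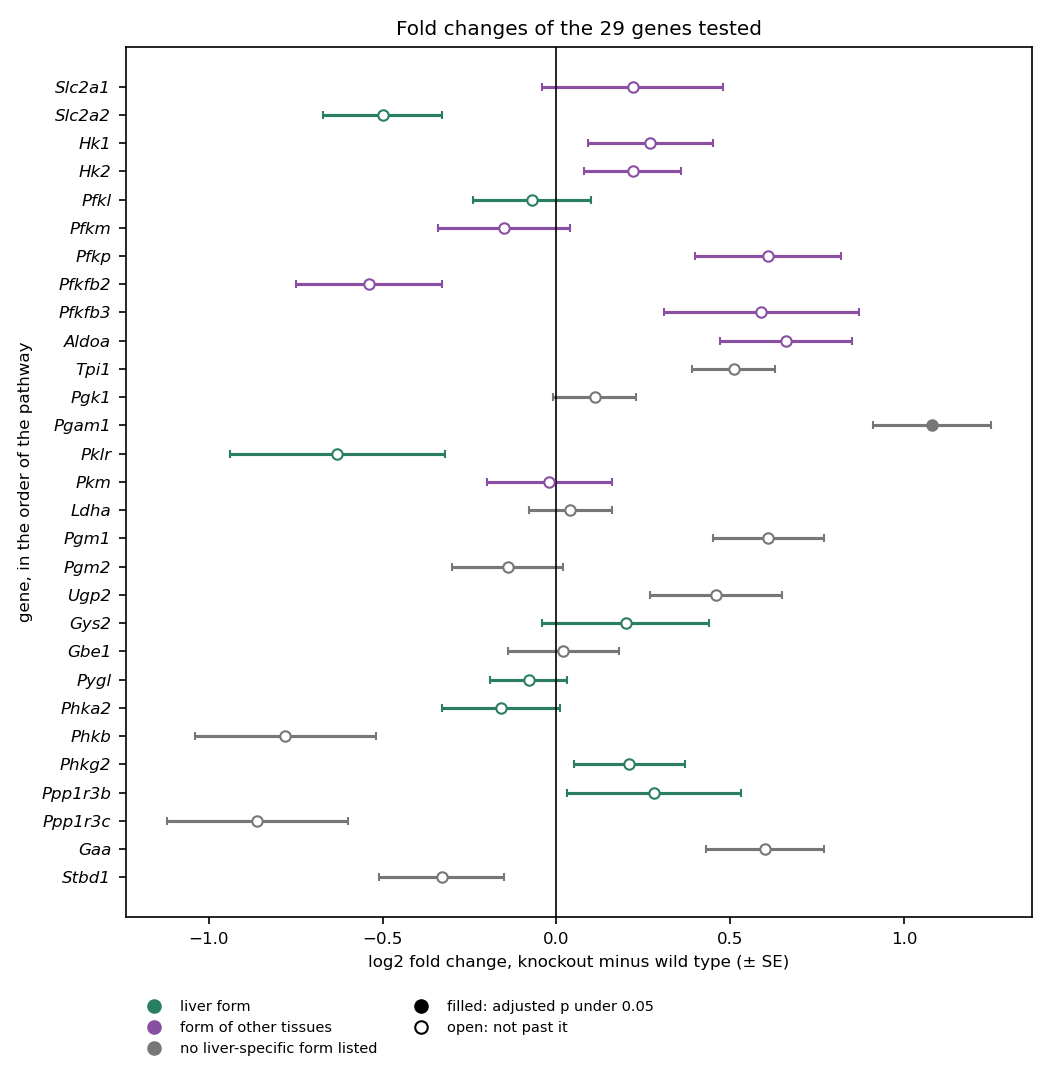
Log2 fold change (knockout minus wild type) with its SE for the 29 genes tested, in the order of the pathway and coloured by whether a gene is the liver form of an enzyme. Pgam1, at 1.08, carries the only filled point (adjusted p under 0.05), and Ppp1r3c, at -0.86, is the lowest.

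In all, 9 of the 29 had groups that did not overlap, 6 of them higher in the knockout (Pgam1, Tpi1, Aldoa, Pfkp, Pgm1 and Gaa) and 3 lower (Ppp1r3c, Phkb and Pfkfb2). Phkb and Pfkfb2 reached the signal minimum mainly or wholly through their wild-type arrays, so the lower count owes 2 of its 3 to genes that this filter let pass because they were high in wild type, and it is not read against the background. Over all probe sets tested, the share without overlap was 9.32%, with 4.47% higher and 4.85% lower. The 6 higher are not read against it either, since the genes were chosen with results of these data known. The 10 tested genes outside the 12 of smallest p and the isoform pairs ran from -0.33 to 0.28, with limma adjusted p of 0.440 to 0.963. By form, the 8 liver forms tested had a median of -0.07 with 3 above 0, the 9 forms of other tissues 0.22 with 6 above 0, and the 12 without a liver form 0.08 with 8 above 0.

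The size of many differences hung on knockout 1. It had the highest knockout signal for 14 of the 31 genes and the lowest for 10. The 29 tested genes had a median of 0.27 on knockout 1 relative to the wild-type mean, and of -0.01, 0.07 and 0.07 on knockout 2, 3 and 4. Without knockout 1, Tpi1 stood at 0.42, Aldoa at 0.47, Pgm1 at 0.47 and Pfkp at 0.45.  Several genes turned between the pairs of replicates: Gys2 (0.65 and -0.25), Hk1 (-0.10 and 0.65), Ppp1r3b (-0.16 and 0.73) and Stbd1 (-0.74 and 0.08).

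**Figure D4:**
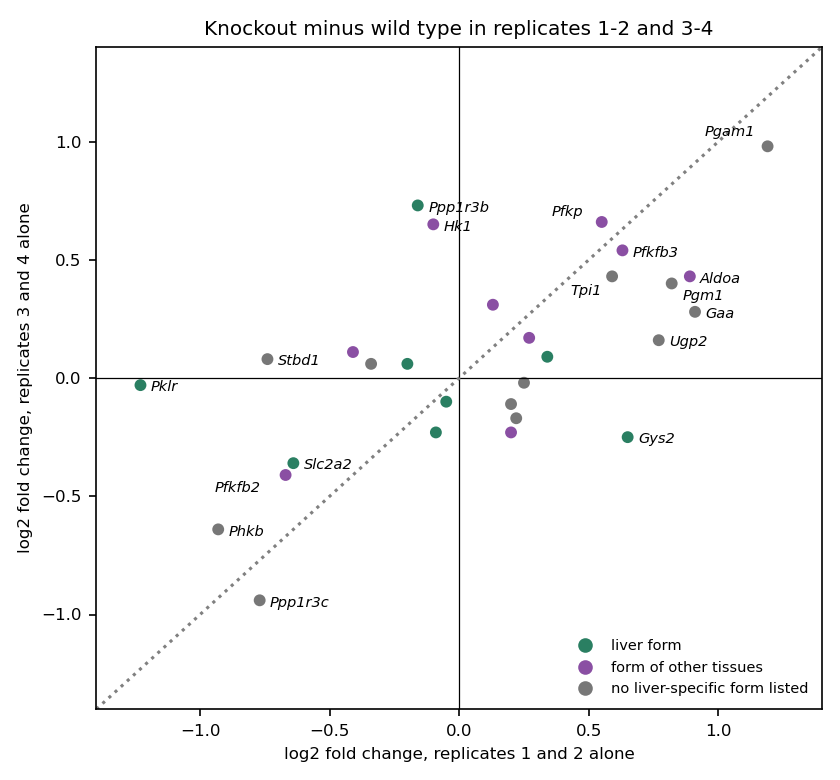
Log2 fold change (knockout minus wild type) of the 29 genes tested, from replicates 1 and 2 alone (horizontal) and from replicates 3 and 4 alone (vertical), with a dotted line where both are equal. Pgam1 lies near that line at 1.19 and 0.98, while Pklr (-1.23 and -0.03) and Gys2 (0.65 and -0.25) do not.

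Other genes of the pathways were read from 2 further lists. Of 22 other glycolysis genes tested, 0 were called by limma, with a median of 0.05; at an unadjusted p under 0.05 there was 1 in each direction, 9.09% of the list beside 14.4% of all probe sets tested, so the list's share was not above the background. The genes of smallest p were the lactate and ketone transporter Slc16a1 (-0.57 ± 0.22) and Mlx (0.36 ± 0.14), the partner of the glucose sensor MLXIPL; Gckr followed at -0.28 ± 0.13. Slc16a1 had 7752, 6208, 7177 and 7042 in the wild-type livers and 3002, 4306, 5877 and 6628 in the knockout, so that knockout 4 overlapped with wild type. Of 18 other glycogen genes tested, 0 were called, with a median of 0.02 and 1 higher and 2 lower at an unadjusted p under 0.05, 16.7% of the list, near the 14.4% of all. The genes of smallest p are given as values. Ppp1r3g, a further glycogen-targeting subunit found in liver, had 752, 248, 341 and 804 against 1628, 1218, 1181 and 748. Knockout 4 lay below wild type 1 and wild type 4, and the fold change was 1.24 ± 0.37 (limma unadjusted p = 0.00656, adjusted p = 0.169). The kinase subunit Prkacb (-0.28 ± 0.12) and glycogenin, Gyg (-0.32 ± 0.14), were the 2 lower ones.

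Newborn liver also holds blood-forming cells, and in RNA from whole liver fewer cells of a type and less RNA in each cell cannot be told apart. Of the erythroid markers 1 of 8 lay above 0, with a median of -0.10, at -0.43 in replicates 1 and 2 and 0.24 in replicates 3 and 4. The summed signal of the 9 measured ran from 50270 to 62231 in the wild-type livers and from 44556 to 66325 in the knockout. On knockout 1 the sum was 50696, within the wild-type range. Of the 9 genes, 5 lay there below every wild-type array (Epor, Gata1, Klf1, Epb42 and Tfrc) and 4 within the wild-type range, among them Alas2, the first enzyme of erythroid heme synthesis, at 11427 and Slc4a1, the red cell anion exchanger, at 16424. Of the members, 10 had their lowest knockout signal on knockout 1. They were Pklr, Hk1, Pfkl, Pfkm, Slc2a2, Pfkfb2, Pgm2, Phka2, Phkb and Ppp1r3b. Hk1 (3536) and Ppp1r3b (1462) lay within the wild-type range on that array. The part of red cell precursors in these values was not tested. Hepatocyte markers lay above 0 in 11 of 11, with a median of 0.08 (0.32 and -0.14 in the 2 pairs of replicates) and sums of 199350 to 253219 against 224041 to 298931, knockout 1 the highest; on that array 10 of the 11 lay above every wild-type array. Of the 11, 3 were at an unadjusted p under 0.05, all higher: Tdo2, a tryptophan-degrading enzyme that increases as the liver matures, at 2.78 ± 0.65 (320 to 1306 in wild type and 1319 to 13661 in the knockout, knockout 1 the highest; limma adjusted p = 0.0992), Hnf4a, a hepatocyte transcription factor, at 0.73 ± 0.27, and Cps1, of the urea cycle, at 0.28 ± 0.11. Albumin (Alb), the defining hepatocyte transcript, ran from 19537 to 26756 over the 8 arrays. Granulocyte markers had 2 of 9 above 0 (median -0.22) and sums of 79532 to 98939 against 67652 to 93138. The medians of the remaining lists were 0.09 for macrophages (5 of 9 above 0), 0.05 for endothelium (4 of 8), -0.06 for cholangiocytes (1 of 2), -0.14 for adipocytes (1 of 2), -0.24 for megakaryocytes (0 of 5), -0.35 for stellate cells and fibroblasts (2 of 7), -0.42 for B lymphoid cells (0 of 4) and -0.69 for T and natural killer cells (1 of 3). The part of these cells in the results was not tested. Of 7 skeletal muscle markers, 5 stayed below 200 on every array, and Ckm, the muscle creatine kinase, ran from 91.9 to 180.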

How the data were processed

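Signal intensity was deposited by the authors for each of 8 arrays, on a linear scale, as made, per the labels, by Affymetrix GCOS 1.2 at default settings (all probe sets scaled to a target of 500). A check of the files gave 2%-trimmed means of 500.0 for all 8 arrays. Groups come from the sample titles. RNA came from each liver individually, so the p-values rest on the spread between arrays of separate pups. The main fit has no block, so that spread also holds the differences between arrays and between the pairs of replicates. The number of arrays limits the precision (median SE of the tested genes 0.18).

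Probe sets were named from the platform annotation, updated by Entrez identifier to RefSeq: 34945 had 1 gene, 932 several and 9160 none, besides 64 control probe sets. Log2(signal + 16) was compared with limma 3.58.1 in R 4.3.3 (lmFit, eBayes with trend, two-sided), with Benjamini-Hochberg adjustment over all 20395 probe sets that reached 200 on 4 or more arrays. The procedure was tested on simulated data, where it recovered 26.5% of 1.5-fold changes, 67.0% of 2-fold changes and 96.0% of 4-fold changes. Of its 400 calls there, 21 were false. The simulation changed 200 probe sets at each size, with independent normal noise on each array and no difference between pairs of replicates. The data gave 61 calls, so their cutoff on the unadjusted p was stricter, and these shares may be too high for them. A gene not called is thus not shown to be unchanged. Isoform ratios and Gapdh were tested by exact permutation in Python 3.11.15.

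The genes, lists and tests were chosen with earlier results of these data known. Values on every array are given for genes called, for the 12 of smallest p and for both genes of each isoform pair; of the further lists, for called genes and otherwise up to 3 of smallest p, some of these, and Pgk1 and Gapdh, with values on every array by a choice made after they were seen. Promoters and the words searched were also chosen after the values were seen. Alternatives were other pseudocounts, signal minimums, scalings and limma settings, blocks, arrays left out and another choice of probe set.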

Additional observations from a re-analysis of the deposited data

Results flagged for a closer look

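Each of the 31 genes was checked in each group of 4 arrays for 1 array that lay apart, by the gap to its nearest neighbour over the range of the group on the log2 scale. Of 62 groups, 1 exceeded Dixon's critical value for 4 samples, and chance gives about 1 in 20 such groups. It was Pkm in the knockout, where knockout 1 had a signal of 2378 and the other 3 arrays 1437 to 1492 (gap over range 0.924).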

How the results depend on the processing

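The count of 1 called gene (Pgam1) was 0 with a signal minimum of 100, with no minimum, without the intensity trend, in replicates 1 and 2 alone, in replicates 3 and 4 alone, and without wild type 4 and knockout 1 together; leaving out 1 array at a time gave 0 to 1. That last pair of arrays and the minimum on the mean signal were chosen after seeing the data. The other 10 alternatives kept 1 call, and Pgam1 stayed at 0.98 to 1.20 throughout. Pgam1 was the 1 named gene called, so the others could change side of the threshold only by gaining a call. Their unadjusted p could still move, as for Gaa, from 0.00501 to 0.0757 (limma) in replicates 3 and 4 alone. Of 455 alternative values for the named genes, 427 kept their sign and side of the threshold and 13 (all of Pgam1) lost the call. The other 15 changed sign, all of genes with small changes. In replicates 3 and 4 alone these were Pfkl (0.06), Pfkm (0.11) and Gys2 (-0.25), in replicates 1 and 2 alone Pkm (0.20), with median scaling Pkm (0.02), and without wild type 4 and knockout 1 Pfkm (0.02). Leaving out 1 array gave ranges of -0.16 to 0.06 for Pfkl, -0.27 to 0.03 for Pfkm, -0.19 to 0.06 for Pkm and -0.14 to 0.02 for Pygb.

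Among the pairs, Pfkl over Pfkp was at -0.70 (exact permutation p = 0.0286) with a pseudocount of 1, and at -0.85 to -0.45 with 1 array left out. Pfkl over Pfkm turned to -0.04 in replicates 3 and 4 alone and to -0.09 without wild type 4 and knockout 1 (-0.02 to 0.17 with 1 array left out), Pklr over Pkm to 0.21 in replicates 3 and 4 alone, and Pygl over Pygb to 0.09 in replicates 1 and 2 alone (-0.15 to 0.07 with 1 array left out). The 2 further lists kept 0 calls in all 48 alternatives. The cause of these changes was not tested, beyond the fewer arrays or more probe sets that the settings themselves bring.

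Same-numbered arrays of the 2 groups correlated at 0.218, 0.404, 0.339 and 0.0512 in their deviations from the group means, and 5 of 8 arrays correlated best with their own number, so the numbers were not taken to pair the livers. With the replicate number as a block 56 probe sets were called in place of 61, Pgam1 still the 1 gene called here (1.08, limma adjusted p = 0.0493). With replicates 1 and 2 against 3 and 4 as a block there were 184, with Pgam1 at an adjusted p of 0.0243. For the isoform pairs, the replicate number as a block can move the p but not the difference. Its 4 pairs of same-numbered arrays can give 0.125 at the smallest. That was the value for Pfkl over Pfkp (-0.67) and for Slc2a2 over Slc2a1 (-0.72), by exact permutation.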
